A study of Mus musculus with 9 samples.

Results

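Replication-dependent histone genes encode the core histones H2A, H2B, H3 and H4 and the linker histone H1 that package newly copied DNA. The genes were taken as every row of the deposited count table whose name has the form Hist1h to Hist4h followed by a class and a letter or number, without the named pseudogenes, and 69 of 47593 rows met this rule. They comprised 6 H1, 20 H2A, 18 H2B, 12 H3 and 13 H4 genes. By cluster, 56 lay in Hist1 on chromosome 13, 10 in Hist2 on chromosome 3, 2 in Hist3 on chromosome 11 and 1, Hist4h4, on chromosome 6. GENCODE annotates 2 of them, Hist1h2aj and Hist1h2al, as pseudogenes.

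RNA came from 9 whole, flash-frozen medulloblastomas of C57BL/6J mice, 3 labelled Cdk6+/+ and 6 labelled Cdk6-/-. All 9 carried a conditional, constitutively active Smoothened allele (SmoM2, fused to EYFP at the Rosa26 locus) switched on by an Atoh1 (Math1) promoter-driven Cre, which acts in granule neuron progenitors of the cerebellum. The sources used here give neither the animals' ages nor whether the Cdk6 deletion was germline or conditional. Each tumour is 1 bulk library, so fewer cells of a type and less RNA per cell cannot be told apart, and the comparison asked how tumours without Cdk6, a cyclin D dependent kinase of the G1 phase, differ from tumours that have it.

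Most histone genes of this kind have no introns and are transcribed in S phase. Their mRNAs end at a short hairpin, the histone stem-loop, instead of a poly(A) tail. The stem-loop binding protein Slbp and the U7 snRNP direct the cut behind it, and the mRNA is degraded when DNA synthesis stops. A minority of the genes also make longer, polyadenylated mRNAs, in differentiated cells above all. A library made from poly(A) RNA holds few molecules of the stem-loop kind. The sources used here do not say in words whether poly(A) RNA was selected. The histone genes together took between 0.00658% and 0.0148% of the counts of a library.

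The stem-loop is shown for the genes on which the results turn, because the 3′ end of the gene model divides the summed values below. Each line gives the hairpin with 5 bases on either side, 5′ to 3′ on the gene's strand, as DNA from GENCODE M21 transcripts on GRCm38.p6. Capitals mark the paired stem, and the 4 lower-case bases between the capitals are the loop.
Hist1h1e: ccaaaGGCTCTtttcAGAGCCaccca
Hist1h1c: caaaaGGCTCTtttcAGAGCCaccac
Hist3h2a: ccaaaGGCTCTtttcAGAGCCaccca
Hist3h2ba: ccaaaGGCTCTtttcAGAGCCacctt
Hist1h3b: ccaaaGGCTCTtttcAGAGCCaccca
Hist1h3c: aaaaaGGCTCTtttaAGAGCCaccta
Hist1h4d: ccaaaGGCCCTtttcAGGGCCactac
Hist1h4i: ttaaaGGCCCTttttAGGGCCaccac
Hist2h4: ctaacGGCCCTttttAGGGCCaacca

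A hairpin of 16 bases with this pattern was found in a transcript of 46 of the 69 genes (66.7%) and in 1.78% of all annotated genes. The form shown for Hist1h1e was found in 26 histone genes and the form shown for Hist1h4d in 7, all of them H4 genes. The deposited gene model ended at the hairpin in 29 genes, such as Hist1h1e at chr13:23621755-23622502 on the minus strand, whose model ran 27 bases past it. It ran at least 100 bases past the hairpin in 14 genes. Among these were Hist1h1c (840 bases, model at chr13:23738808-23740367, plus strand), Hist3h2a (1643 bases, chr11:58954685-58956830, plus strand) and Hist3h2ba (169 bases, chr11:58948920-58949533, plus strand). In 3 genes the model stopped before the hairpin, and in 23 no hairpin lay in an annotated transcript. All of these models except those of Hist1h2be and Hist1h2bc, among the genes named here, are single exons, so counts lie in coding sequence and any untranslated sequence beside it.

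The 150 bases before the transcription start are shown for 2 H1 genes and for Hist3h2ba, since Hist1h1e rose, Hist3h2ba fell and Hist1h1c is the other abundant H1 gene. Sequences are those of RefSeq on GRCm38.p6, 5′ to 3′ on the gene's strand, and capitals mark matches on either strand to TATAAA (the TATA box), CCAAT (the CCAAT box), ATTTGCAT (the octamer of H2B promoters), AAACACA (the H1 box) or GGTCCG (from the H4 promoter element). The stretch of Hist1h1e is chr13:23622559-23622708 (minus strand), that of Hist1h1c is chr13:23738657-23738806 (plus strand) and that of Hist3h2ba is chr11:58948761-58948910 (plus strand).
Hist1h1e: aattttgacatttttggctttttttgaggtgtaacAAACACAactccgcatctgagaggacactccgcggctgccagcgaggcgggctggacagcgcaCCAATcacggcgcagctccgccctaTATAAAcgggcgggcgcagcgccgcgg
Hist1h1c: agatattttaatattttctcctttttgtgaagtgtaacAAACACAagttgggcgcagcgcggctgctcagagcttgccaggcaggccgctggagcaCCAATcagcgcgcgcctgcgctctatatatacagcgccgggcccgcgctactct
Hist3h2ba: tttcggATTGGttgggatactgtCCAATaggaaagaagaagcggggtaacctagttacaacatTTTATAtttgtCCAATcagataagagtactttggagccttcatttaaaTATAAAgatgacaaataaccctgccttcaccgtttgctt

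Hist1h1e and Hist1h1c both held AAACACA, beginning 115 and 112 bases before the start, and CCAAT at 52 and 54 bases before it. TATAAA was in the Hist1h1e stretch, 27 bases before the start, and these letters were not in the Hist1h1c window. A RefSeq promoter of 300 bases (250 before to 50 after the start) was matched for 62 of the 69 genes. CCAAT was in 53 of the 62 (85.5%), against 37.4% of all RefSeq mouse promoters, and TATAAA was in 35 (56.5%, against 13.6%). CCAAT was in every matched H1, H2A, H2B and H3 promoter and in 3 of 12 H4 promoters. GGTCCG was in 11 of 12 H4 promoters (91.7%, against 8.25%), AAACACA in 5 of 6 H1 promoters (83.3%, against 7.19%), and ATTTGCAT in 7 of 18 H2A and 6 of 16 H2B promoters (1.74% of all). A match describes the letters and is not a site of binding.

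Libraries held 21386685 to 56837204 counts, and each Cdk6-/- library was shallower than each Cdk6+/+ library. Cdk6 was at 550 to 562 CPM (counts per 1000000 after scaling the library total by TMM) in the Cdk6+/+ tumours and at 2.16 to 562 CPM in the tumours labelled Cdk6-/-, with tumour 2 at 562 CPM. The deposited table does not divide reads by exon, so this level checks only how much Cdk6 RNA was counted. Cdk6-/- tumour 5 stood apart, with the proliferation marker Mki67 at 0.398 CPM against 711 to 1055 CPM in the other 8 tumours, and the progenitor marker Atoh1 at 0.0442 CPM. Of the other progenitor and SmoM2 tumour markers, Barhl1, Gli1, Gli2, Mycn and Ccnd1 were at 22.2 CPM or less in tumour 5. Zic1 was at 841 CPM there (1031 to 1184 CPM in Cdk6+/+) and Ptch1 at 857 CPM (662 to 813 CPM in Cdk6+/+). Gabra6, which encodes a GABA receptor subunit that granule neurons make as they mature, reached 931 CPM in Cdk6-/- tumour 1 and 1053 CPM in tumour 5, and lay at 2.51 to 161 CPM in the others. Results are therefore given with and without Cdk6-/- tumours 1 and 5. Xist was at 1581 to 2085 CPM in the 3 Cdk6+/+ tumours and the Y-linked Ddx3y was high in some Cdk6-/- tumours only, so sex and genotype are partly confounded.

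Of the 69 genes, 62 had a count in at least 1 tumour and 28 passed the filter on low counts and were tested. The 41 others comprised 7 with no count (Hist1h2aa, Hist1h2al, Hist1h2ao, Hist2h2aa1, Hist2h2aa2, Hist2h3b and Hist2h3c1) and 34 with at most 121 counts over the 9 libraries, Hist1h3e having the most. The members are near copies of each other: in 44 of the 69, at least 50% of the 50-base sequences of the gene model also occur in another annotated gene, and in Hist2h2aa1, Hist2h2aa2, Hist2h3b and Hist2h3c1 all of them do (100%). The sources used here do not state how reads with several alignments were counted. Levels and differences of genes with much shared sequence are therefore uncertain, as are the 23 genes with exons opposite another gene.

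Most histone counts came from few genes. Hist3h2a, Hist2h2be, Hist1h1c, Hist1h2bc, Hist3h2ba and Hist1h1e held 73.4% of the summed mean CPM. Hist3h2a, an H2A gene outside the large cluster, was at 27, 22.9 and 20.1 CPM in Cdk6+/+ tumours 1 to 3 and at 24.1, 15, 19.7, 21.5, 25.4 and 18.9 CPM in Cdk6-/- tumours 1 to 6. Of the Hist3h2a model, 33.0% overlaps exons of other genes on the same strand. Of its 50-base sequences, 31.5% also occur in other genes, mostly Trim17, so its counts may not be those of the histone gene alone. Hist2h2be, an H2B gene whose human counterpart is known to make polyadenylated mRNA, was at 16.3, 13.8 and 16.6 CPM and at 18.4, 11.1, 12.3, 18.3, 19.8 and 14.4 CPM. The groups overlapped in both genes, and the log2 fold changes (Cdk6-/- minus Cdk6+/+) of -0.17 ± 0.25 (SE) and 0.01 ± 0.28 did not pass the test (adjusted p = 0.770 and 0.989). The summed level of all 69 genes was 100.6 ± 10.2 CPM (SD, n = 3) in Cdk6+/+ and 109 ± 33.0 CPM (SD, n = 6) in Cdk6-/- tumours.

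Among the 28 tested genes, 1 was called higher in Cdk6-/- tumours, Hist1h1e, and 1 lower, Hist3h2ba. The test was edgeR's quasi-likelihood test with Benjamini-Hochberg adjustment over all 18356 genes tested, at a threshold of 0.05. Of all genes tested, 2.76% were called higher and 2.43% lower (5.19% in either direction). Without Cdk6-/- tumours 1 and 5, 33 members were tested, 13 were called higher and 1 lower, beside 8.12% and 6.14% of all genes (14.3% in either direction). Both genes called over 9 libraries were called again over 7. The median log2 fold change of the tested members was 1.76, beside 0.16 over all genes tested, and without tumours 1 and 5 it was 2.14, beside 0.04. It was 0.97 without Cdk6-/- tumour 6, in a fit where fewer members passed the filter. In tumour 6, 16 of the 28 tested members were highest among the Cdk6-/- tumours. A positive log2 fold change was found in 23 of the 28, beside 59.9% of all genes tested, and 10 of 28 had an unadjusted p under 0.05, beside 19.3%. The filter on low counts can be met by Cdk6-/- libraries alone, as by Hist1h2ba, which had no count in Cdk6+/+ tumours. Members that pass in this way are higher in Cdk6-/- tumours by selection. The medians and counts of members in both fits are therefore partly set by the filter. Markers of other cell types also separated the groups. The 4 microglia markers Aif1, Cx3cr1, P2ry12 and Csf1r summed to 196 to 222 CPM in Cdk6+/+ and 55.7 to 128 CPM in Cdk6-/- tumours. The 3 red cell markers Hbb-bs, Hba-a1 and Alas2 summed to 51.5 to 82.0 CPM and 0.481 to 6.67 CPM, with Hba-a1 at 0 in some Cdk6-/- tumours. Each of these 7 genes was lower in every Cdk6-/- tumour than in every Cdk6+/+ tumour, and their part in the calls of Hist1h1e and Hist3h2ba was not tested.

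**Figure D1:**
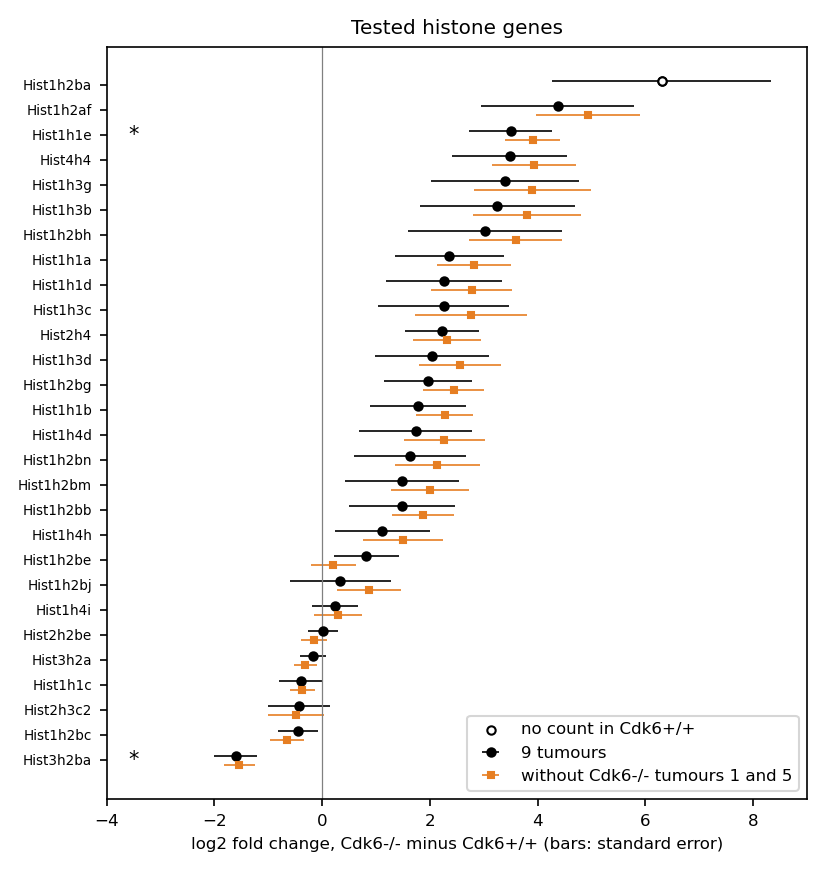
Log2 fold change (Cdk6-/- minus Cdk6+/+) with its standard error for each of the 28 tested histone genes, over 9 tumours (circles) and without Cdk6-/- tumours 1 and 5 (squares, where tested). Asterisks mark the 2 genes with an adjusted p under 0.05 over 9 tumours, Hist1h1e and Hist3h2ba; the open circle has no count in Cdk6+/+ tumours, where the size of the fold depends on the prior count.

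The linker histones gave the gene called higher. H1 binds the DNA that enters and leaves the nucleosome, and Hist1h1a, Hist1h1b, Hist1h1d and Hist1h1e are replication-dependent forms, whereas Hist1h1c is also made in cells that have left the cycle. Hist1h1e was at 1.03, 0.512 and 0.855 CPM in Cdk6+/+ tumours 1 to 3 and at 4.06, 6.52, 8.0, 13.0, 2.03 and 20.7 CPM in Cdk6-/- tumours 1 to 6. Every Cdk6-/- tumour was above every Cdk6+/+ tumour, with tumour 5 the lowest and tumour 6 the highest. Hist1h1e rose by 3.50 ± 0.77 (SE) on the log2 scale (edgeR adjusted p = 0.0278), and by 3.91 ± 0.51 without tumours 1 and 5 (adjusted p = 0.00191). The call ended when any one of Cdk6+/+ tumours 1, 2 and 3 or Cdk6-/- tumour 3 was left out (adjusted p = 0.114, 0.118, 0.130 and 0.0611) and when Y-linked expression was a covariate (adjusted p = 0.101). The authors' deposited table of their DESeq2 result lists 761 genes, all with an adjusted p under 0.05. Hist1h1e is the only one of the 69 members in it, with a log2 fold change of 3.23. Of its 50-base sequences, 22.2% also occur in other genes, mostly Hist1h1d and Hist1h1c.

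Hist1h1c was at 18.7, 15.6 and 12.4 CPM in Cdk6+/+ tumours and at 4.01, 10.2, 13.7, 11.9, 19.0 and 12.4 CPM in Cdk6-/- tumours. Its groups overlapped, with tumour 1 lowest and tumour 5 highest, and its log2 fold change of -0.39 ± 0.41 did not pass the test (adjusted p = 0.656). Per kilobase of gene model, Hist1h1e was 7.42 ± 1.98% (SD, n = 3) of the summed H1 level in Cdk6+/+ tumours and 35.4 ± 10.3% (n = 6) in Cdk6-/- tumours. Hist1h1c was 69.7 ± 6.83% and 30.6 ± 23.7%, and in Cdk6-/- tumour 5 it was 76.4%, above each Cdk6+/+ tumour.

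Hist1h1b, Hist1h1d and Hist1h1a shared another order. Hist1h1b was at 1.40, 0.756 and 1.09 CPM in Cdk6+/+ tumours and at 1.02, 1.91, 3.78, 7.87, 0.309 and 7.48 CPM in Cdk6-/- tumours. Hist1h1d was at 0.594, 0.561 and 0.803 CPM and at 0.481, 0.773, 2.37, 5.11, 0.309 and 9.72 CPM. Hist1h1a was at 0.450, 0.512 and 0.751 CPM and at 1.34, 0.699, 3.38, 5.85, 0.133 and 6.27 CPM. All 3 genes were lowest in Cdk6-/- tumour 5, below every Cdk6+/+ tumour, and above every Cdk6+/+ tumour in Cdk6-/- tumours 3, 4 and 6. Over 9 tumours their log2 fold changes of 1.78 to 2.36 did not pass the test (edgeR adjusted p = 0.318, 0.287 and 0.237 in the order above). Without tumours 1 and 5 they were 2.27, 2.78 and 2.83 and all passed (adjusted p = 0.0218, 0.0383 and 0.0255). The testis-type Hist1h1t had 1 count in all.

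**Figure D2:**
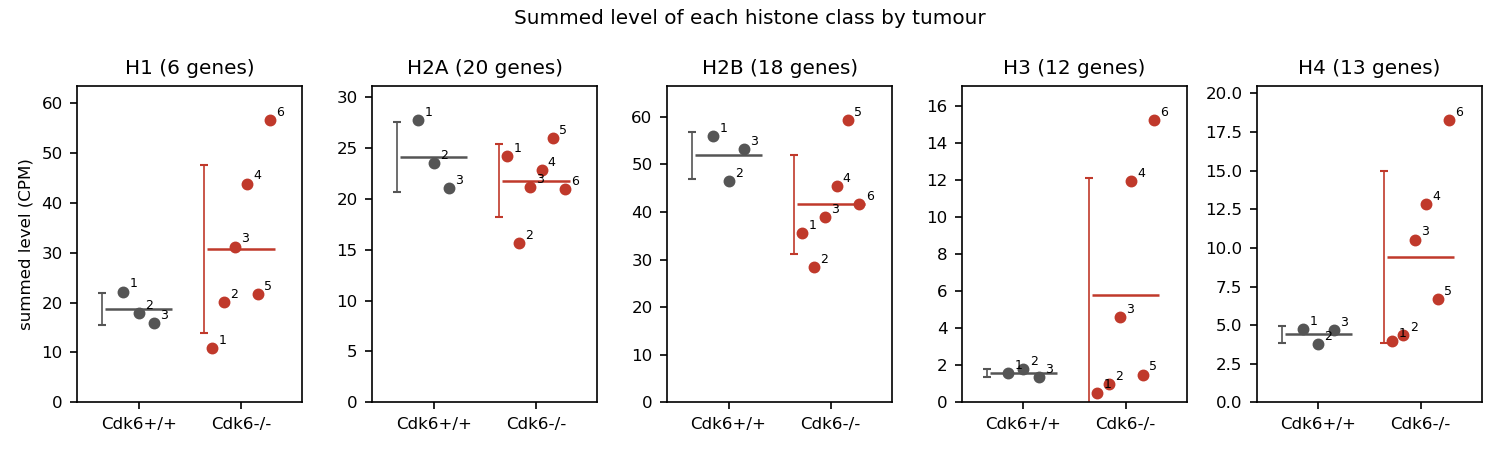
Summed CPM of the genes of each histone class in each tumour; the number beside a point is the tumour number, horizontal lines are group means and vertical bars are 1 SD (n = 3 Cdk6+/+, n = 6 Cdk6-/-; a bar that would pass below 0 ends at 0). H1, H3 and H4 are highest in Cdk6-/- tumour 6, at 56.6, 15.2 and 18.3 CPM, and the groups overlap in all 5 classes.

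The summed level of the H2A genes was 24.1 ± 3.40 CPM (SD, n = 3) in Cdk6+/+ and 21.8 ± 3.56 CPM (n = 6) in Cdk6-/- tumours, and Hist3h2a supplied most of it. The only other tested H2A gene, Hist1h2af, had 2 counts in the 3 Cdk6+/+ tumours together and 67 in the 6 Cdk6-/- tumours. The ratio of the pooled CPM was 29.1, with an exact 95% interval of 7.75 to 245 that covers counting error only. Its adjusted p was 0.12 over 9 tumours and 0.0106 without tumours 1 and 5, where it is called higher. Of its 50-base sequences, 94.0% occur in other genes, so its counts may include reads of other H2A genes. Per kilobase, Hist1h2af and Hist2h2ac followed Hist3h2a in level in the class, at means of 0.655 CPM per kilobase or less beside 10.1. Hist2h2ac, with 43 counts, was not tested.

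H2B gave the gene called lower. Hist3h2ba was at 17.4, 17.2 and 18.8 CPM in Cdk6+/+ tumours and at 2.24, 3.57, 6.86, 5.85, 8.26 and 8.20 CPM in Cdk6-/- tumours. Every Cdk6-/- tumour was below every Cdk6+/+ tumour, tumour 1 the lowest. Hist3h2ba fell by 1.61 on the log2 scale (SE 0.40, edgeR adjusted p = 0.0458), and by 1.53 without tumours 1 and 5 (SE 0.29, adjusted p = 0.00959). The call ended without any one of Cdk6+/+ tumours 1, 2 and 3 (adjusted p = 0.157, 0.123 and 0.176) or Cdk6-/- tumours 2, 3 and 4 (0.0763, 0.0878 and 0.0821), and when Y-linked expression was a covariate (0.287). Its neighbour in the Hist3 cluster, Hist3h2a, overlapped between the groups, and the ratio of their CPM was 0.644 to 0.931 in Cdk6+/+ and 0.0931 to 0.434 in Cdk6-/- tumours. The Hist3h2a counts in this ratio may include reads of Trim17. The pseudogene Hist3h2bb-ps, which shares 22.1% of the 50-base sequences of Hist3h2ba, had 3 to 25 counts in a library.

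The other abundant H2B genes were Hist1h2bc and Hist1h2be. Hist1h2bc, whose human counterpart also makes polyadenylated mRNA, was at 17.2, 11.7 and 13.2 CPM in Cdk6+/+ tumours and at 9.19, 9.50, 12.6, 8.16, 17.3 and 5.15 CPM in Cdk6-/- tumours. Its groups overlapped, with tumour 5 the highest, and its log2 fold change of -0.44 ± 0.37 did not pass the test (adjusted p = 0.563). Hist1h2be was at 3.58, 2.27 and 2.46 CPM and at 4.22, 1.58, 2.89, 5.19, 12.3 and 3.14 CPM, so tumour 5 stood above all others. The deposited model of Hist1h2be has far exons close to Hist1h1e and shares 16.6% of its 50-base sequences with other genes, mostly Hist1h1e, so its counts are not those of the histone coding sequence alone.

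Hist1h2ba, the testis-type H2B, had the largest fitted log2 fold change of the 28, 6.30, which rests on no count in Cdk6+/+ tumours. It was at 0.147, 0.618, 0.486 and 0.582 CPM in Cdk6-/- tumours 2, 4, 5 and 6 and had no count in tumours 1 and 3. The 43 counts over the Cdk6-/- libraries make a pooled level of 0.276 CPM, at least 12.5-fold higher than the 0.0222 CPM that 3 counts over the Cdk6+/+ group would give. It did not pass the test (adjusted p = 0.132). The male germ cell markers Ddx4, Dazl and Sycp3 summed to 1.49 to 2.29 CPM in Cdk6+/+ and 1.30 to 4.33 CPM in Cdk6-/- tumours, and their part in the result was not tested.

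H3 was the class with the lowest sums, at 1.58, 1.80 and 1.35 CPM in Cdk6+/+ tumours and at 0.534, 0.994, 4.62, 11.9, 1.5 and 15.2 CPM in Cdk6-/- tumours. Cdk6-/- tumours 3, 4 and 6 were above every Cdk6+/+ tumour and tumours 1 and 2 below. Hist1h3d, which had the highest mean level of the class, was at 0.432, 0.341 and 0.337 CPM and at 0.107, 0.368, 1.16, 3.01, 0.265 and 4.30 CPM. Hist1h3b was at 0.108, 0.0731 and 0.129 CPM and at 0.107, 0.0736, 0.938, 2.22, 0 and 2.78 CPM. None of the 5 tested H3 genes was called over 9 tumours (adjusted p = 0.250 for Hist1h3b and 0.335 for Hist1h3d). Without tumours 1 and 5, 7 were tested and 4 called higher, among them Hist1h3b (log2 fold change 3.81 ± 1.00, adjusted p = 0.0340), and Hist1h3d was at 2.55 ± 0.76 (adjusted p = 0.0507). Hist1h3i, the third H3 gene by level per kilobase, was not tested. Sequence was shared with other genes over 60.4% of Hist1h3b and 58.3% of Hist1h3d.

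H4 genes encode one and the same protein, and their sums were 4.73, 3.78 and 4.69 CPM in Cdk6+/+ tumours and 3.95, 4.34, 10.5, 12.8, 6.67 and 18.3 CPM in Cdk6-/- tumours. Hist1h4i, the most abundant, was at 2.99, 1.83 and 2.41 CPM and at 2.94, 1.91, 5.41, 2.60, 2.25 and 1.88 CPM, overlapping between the groups (adjusted p = 0.819). Hist2h4 was at 0.450, 0.268 and 0.518 CPM and at 0.641, 0.810, 1.01, 2.68, 2.69 and 3.81 CPM. Every Cdk6-/- tumour was above every Cdk6+/+ tumour in Hist2h4, but its log2 fold change of 2.22 ± 0.69 did not pass the test (adjusted p = 0.103), whereas without tumours 1 and 5 it did (2.32 ± 0.63, adjusted p = 0.0388). Groups lay fully apart, higher in Cdk6-/- tumours, in 2 of the 28 tested members (7.56% of all genes tested), and lower in 1 (7.98%). Hist4h4, the single gene of its cluster, was at 0.0360, 0.195 and 0.0259 CPM and at 0.0534, 0.589, 1.36, 1.19, 0.486 and 2.20 CPM (adjusted p = 0.0987, and 0.0111 without tumours 1 and 5). Hist1h4d and Hist1h4h, next in level per kilobase, did not pass in either fit (adjusted p = 0.410 and 0.538 over 9 tumours, 0.0746 and 0.198 without tumours 1 and 5).

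The 3′ end of the gene model divided the summed levels of the members, across classes, in a way the rule that chose them did not use. The 29 genes whose model ends at the stem-loop summed to 4.57, 4.07 and 5.67 CPM in Cdk6+/+ tumours and to 6.31, 10.6, 18.1, 33.3, 3.93 and 53.8 CPM in Cdk6-/- tumours. Cdk6-/- tumour 5 was below every Cdk6+/+ tumour and the 5 other Cdk6-/- tumours were above. Without Hist1h1e, the largest of them, the sums were 3.54, 3.56 and 4.82 CPM and 2.24, 4.09, 10.1, 20.3, 1.90 and 33.1 CPM, so that tumours 3, 4 and 6 alone were above every Cdk6+/+ tumour. The 14 genes whose model runs past the stem-loop summed to 71.5, 61.5 and 57.7 CPM and to 38.6, 34.4, 52.9, 55.5, 72.1 and 55.7 CPM. Here tumour 5 was the highest of all 9 tumours, and the other Cdk6-/- tumours were below every Cdk6+/+ tumour. The called gene Hist3h2ba supplied 17.2 to 18.8 CPM of the Cdk6+/+ sums and 2.24 to 8.26 CPM of the Cdk6-/- sums. Without it the other Cdk6-/- tumours are no longer all below the Cdk6+/+ tumours, so the lower sums are not a trait of the whole group. Single genes of this group differed. Hist3h2a, Hist1h1c and Hist3h2ba were its most abundant members. Hist4h4, with 2445 bases past the stem-loop, had a log2 fold change of 3.49. Hist1h3f and Hist1h4a had no count in tumour 5 and were highest in tumour 6. Without tumours 1 and 5, edgeR called 4 of the group's 12 tested genes higher and 1 lower, beside 8.12% and 6.14% of all genes. Of the other members, 9 of 21 tested were called higher. The genes with no stem-loop in a transcript summed to 27.5 to 35.9 CPM in Cdk6+/+ and 24.1 to 44.0 CPM in Cdk6-/- tumours. This division, and the limit of 100 bases, was chosen after the values were seen, and it carries no test.

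**Figure D3:**
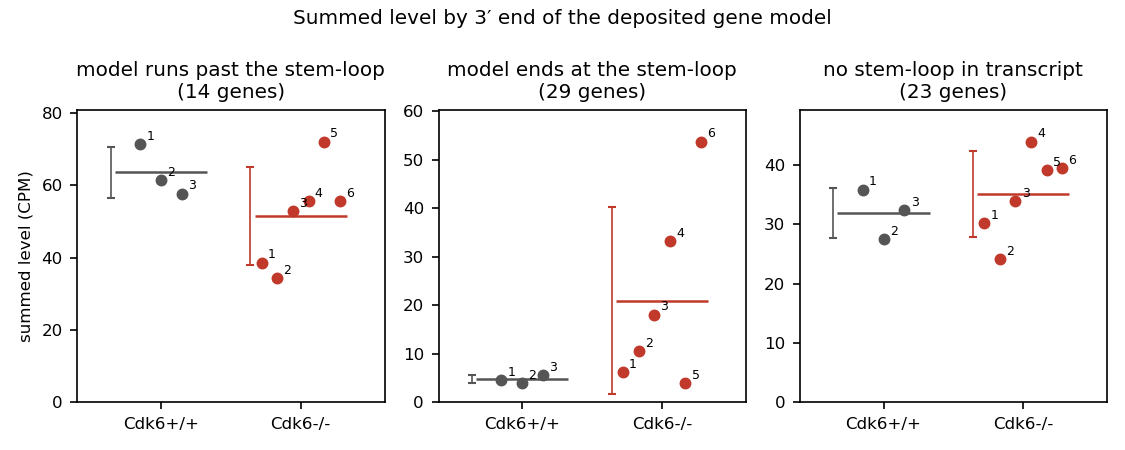
Summed CPM by tumour of the histone genes whose deposited model runs at least 100 bases past the stem-loop, ends at it, or has no stem-loop in an annotated transcript; points carry the tumour number, horizontal lines are group means and vertical bars 1 SD (n = 3 and n = 6). Cdk6-/- tumour 5 is the highest of the 9 tumours on the left, at 72.1 CPM, and the lowest in the middle, at 3.93 CPM.

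In Cdk6-/- tumour 5, where Mki67 was near 0, the genes whose model ends at the stem-loop summed to 21.7% of the median of the other 5 Cdk6-/- tumours, and those whose model runs past it to 136%. The genes with no stem-loop in a transcript summed to 115%, with Hist2h2be at 138% and Hist1h2bc at 188% but Hist1h1a and Hist1h1b under 10%. All genes whose model does not run past the stem-loop together were at 80.6%. A division by exon length gave 158% for the 11 genes of 1000 bases or more and 61.3% for the 58 shorter genes, so the 3′ end and the length of the model were not separated. In the 8 tested genes whose model runs past the stem-loop, its level was at a median of 150% of the median of the other 5 Cdk6-/- tumours, and in none of the 8 was tumour 5 the lowest. Untested genes of this group differed. Hist1h3f and Hist1h4a had no count in tumour 5, Hist1h2bp and Hist1h3e were at 35.7% and 44.7%, and Hist1h4j was at 215%. In the 20 other tested genes, which include those with no stem-loop, the median over genes was 12.9%, tumour 5 was the lowest Cdk6-/- tumour in 10, and 5 had no count there (Hist1h2bb, Hist1h2bh, Hist1h2bj, Hist1h2bm and Hist1h3b). At this depth, 3 counts in tumour 5 would be 0.133 CPM. Over all genes tested the median was 93.1%, and tumour 5 was the lowest Cdk6-/- tumour in 30.4% of them. Among tested members with a mean of at least 1 CPM, the highest ratios were those of Hist1h2be (393%), Hist2h4 (266%) and Hist1h2bc (188%), and the lowest those of Hist1h1a (3.92%), Hist1h1b (8.19%) and Hist1h1d (13.0%). Tumour 5 also had mature granule neuron markers summing to 2353 CPM, and tumour 1 had 2762 CPM (652 to 722 CPM in Cdk6+/+). Of that list, Neurod1 in tumour 5, at 334 CPM, was below the 368 to 410 CPM of Cdk6+/+ tumours, and the other genes were above. Purkinje cell markers summed to 7017 CPM in tumour 5 (432 to 889 CPM in Cdk6+/+). The part of these markers in the histone values was not tested.

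**Figure D4:**
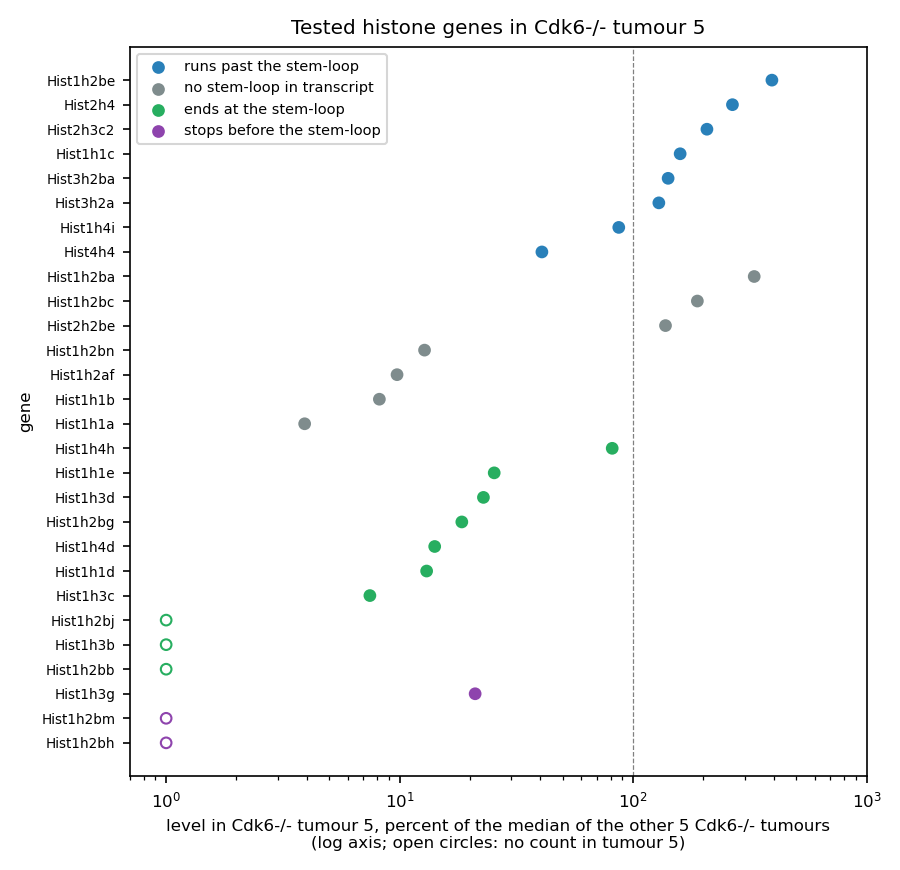
Level of each of the 28 tested histone genes in Cdk6-/- tumour 5 as a percent of its median in the other 5 Cdk6-/- tumours, on a log axis, grouped by the 3′ end of the gene model. The tested genes whose model runs past the stem-loop lie between 40.7% and 393%, and the 5 open circles are genes with no count in tumour 5. Untested genes of that group, of which some had no count in tumour 5, are not shown.

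Cdk6-/- tumour 1, the other tumour with high Gabra6, was the lowest of the 6 in 11 of the 28 tested members and the highest in none. Its Mki67 level, 822 CPM, lay within the range of the tumours other than tumour 5, as did the proliferation markers Top2a (719 CPM) and Ccnb1 (80.1 CPM). The other proliferation markers examined, Cdk1 (111 CPM) and Birc5 (54.7 CPM), were below each of those tumours. Cdk6-/- tumour 6 was the highest in 16 of the 28 tested members. How often tumours 1 and 6 were lowest or highest over all genes tested was not examined, so these counts may not be particular to histone genes. Summed H3 in tumour 1 was 6.45% of the median of tumours 2, 3, 4 and 6, and summed H4 33.9%, whereas summed H2A was 115%. Tumour 1 was also the shallowest library, with 32 members counted, against 36 to 53 in the others.

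**Figure D5:**
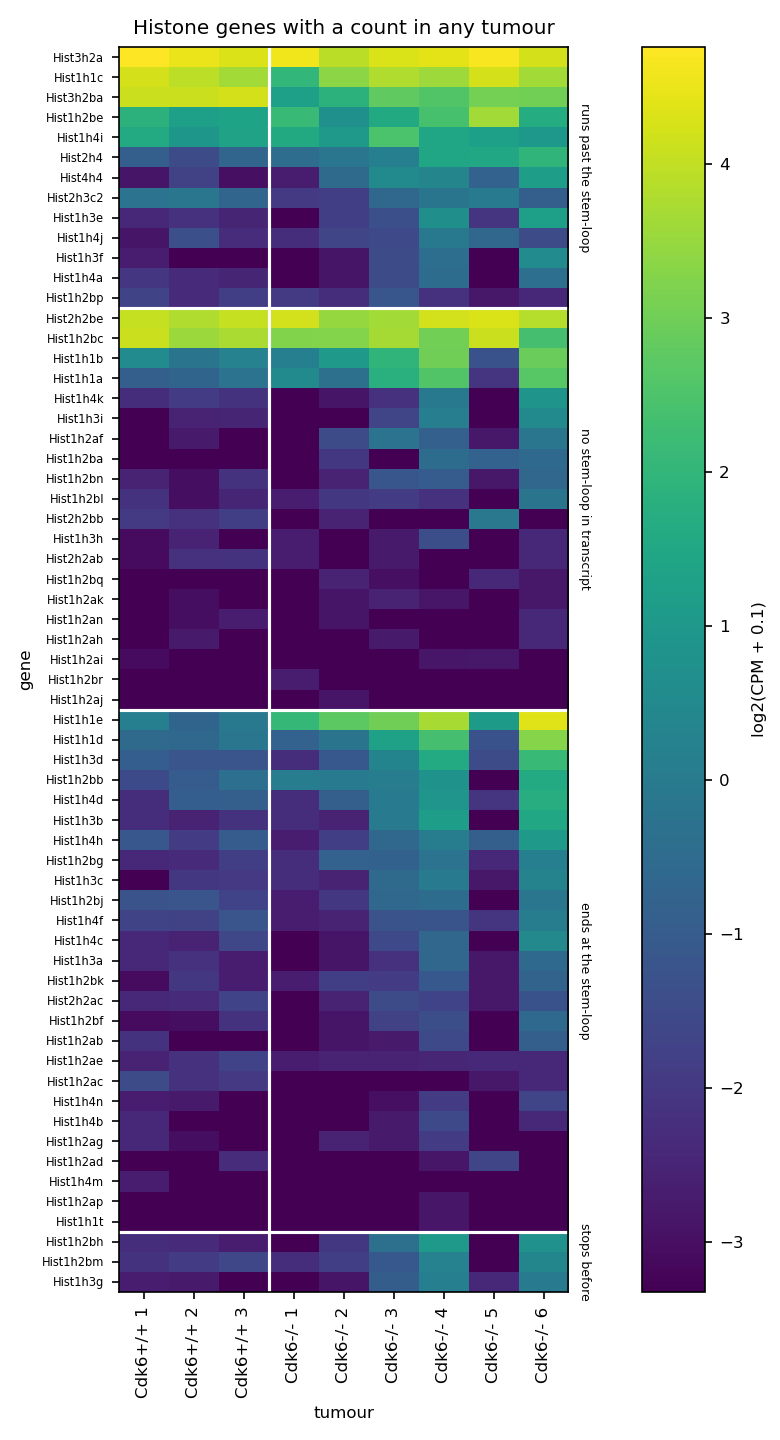
Level of the 62 histone genes with a count in any tumour, as log2(CPM + 0.1), by tumour (columns) and gene (rows, grouped by the 3′ end of the deposited model and ordered by mean CPM). In the group that ends at the stem-loop, Cdk6-/- tumours 3, 4 and 6 are the brightest columns; in the group that runs past it, Hist3h2a, at 15 to 27 CPM, is bright in all 9 tumours.

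Genes that make, carry or replace histones were examined from 4 lists. Of 24 tested genes of histone mRNA transcription and processing, none was called by edgeR over 9 tumours (median log2 fold change -0.18, beside 0.16 over all genes tested). Without tumours 1 and 5, 1 of the 24 was called higher, beside 8.12% of all genes tested. That gene was Srrt, which links the cap-binding complex to RNA processing, at 118 to 157 CPM in Cdk6+/+ tumours and 153, 155, 365, 397, 148.7 and 246 CPM in Cdk6-/- tumours (log2 fold change 1.11 ± 0.31, adjusted p = 0.0423). Slbp was at 113.0, 101.9 and 101.5 CPM and at 74.4, 94.0, 57, 57.5, 19.0 and 76.7 CPM, lower in each Cdk6-/- tumour than in each Cdk6+/+ tumour, with a log2 fold change of -0.74 ± 0.39 that did not pass (adjusted p = 0.334). Ccne2, the cyclin partner of Cdk2 that acts on the histone gene regulator Npat, and Pou2f1, which binds the octamer, did not pass either (adjusted p = 0.294 and 0.405).

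Of 18 histone chaperones and carriers none was called over 9 tumours (median -0.26). Without tumours 1 and 5, 1 of the 18 was called lower, beside 6.14% of all genes tested. It was Rbbp4, a subunit of the chromatin assembly factor CAF-1, at 542 to 695 CPM in Cdk6+/+ and 169 to 445 CPM in Cdk6-/- tumours (log2 fold change without tumours 1 and 5 of -0.79 ± 0.22, adjusted p = 0.0447). Of 11 replication-independent histone genes, 1 was called lower over 9 tumours, beside 2.43% of all genes tested. This gene was H3f3a, which encodes H3.3. It was at 351, 331 and 366 CPM and at 42.1, 48.6, 44.1, 60.9, 30.1 and 92.1 CPM, and fell by 2.72 on the log2 scale (SE 0.31, adjusted p = 0.00130). The more abundant H3f3b, which also encodes H3.3, was at means of 1548 CPM in Cdk6+/+ and 1153 CPM in Cdk6-/- tumours. Its log2 fold change of -0.43 ± 0.46 did not pass the edgeR test (adjusted p = 0.670). H2afz, which encodes H2A.Z, joined H3f3a without tumours 1 and 5 (-1.02 ± 0.17, adjusted p = 0.00533), where 6.14% of all genes were called lower.

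Of 18 genes of S phase DNA synthesis none was called over 9 tumours (median -0.65). Pcna, the clamp of the replicative polymerases, was at 442, 377 and 396 CPM in Cdk6+/+ tumours and at 127, 210, 120, 143, 27.1 and 190 CPM in Cdk6-/- tumours. Without tumours 1 and 5, Pcna (-1.29 ± 0.22, adjusted p = 0.00598) and the clamp loader subunit Rfc4 (-1.24 ± 0.25, adjusted p = 0.0113) were called lower. These were 2 of the 18, beside 6.14% of all genes tested. In the same fit 13 of 33 tested replication-dependent histone genes were called higher, beside 8.12%. Over the S phase list, the median level in tumour 5 was 9.63% of that in the other 5 Cdk6-/- tumours.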

How the data were processed

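Trizol RNA (1 microgram of total RNA, TruSeq kit, per the labels' protocols) was sequenced as 50-base single-end reads. Reads were handled with Trimmomatic, FastQC and HISAT2 on GRCm38.p6, per the submitters' processing notes. The sources used here name no counting tool, strand setting or annotation. The authors deposited whole-number counts per gene, unnormalized, with positions and exon lengths. Their DESeq2 table holds log2 fold changes, p-values and adjusted p-values as the authors deposited them, and a score derived from the p-value that was not used.

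Counts were filtered with filterByExpr, scaled by TMM and tested by genotype with the robust, two-sided quasi-likelihood test of edgeR 4.0.16 in R 4.3.3, adjusted by Benjamini-Hochberg over 18356 genes. The p-values measure the spread between tumours. CPM are counts per 1000000 of the TMM-scaled library; sums are descriptions. Fits without Cdk6-/- tumours 1 and 5 repeated filter and scaling. Shared sequence is the percent of 50-base sequences of the deposited model that occur in another gene of GENCODE M21. Alternatives used DESeq2 1.42.0 and limma 3.58.1; tables used Python 3.11.15. In simulations with the fitted dispersions (17914 genes), 0% of 2-fold and 4% of 4-fold changes were found. With dispersions capped at 0.05 (17969 genes), 63% and 100% were found.

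Genes named are the 3 of each class highest in CPM per kilobase, those called, the extremes of the ratio of tumour 5 among tested members at 1 CPM or more and of the fold change, and the 4 of smallest p in each list. The other members given were chosen after their values were seen. The members and lists were chosen with earlier results of these data known.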

Additional observations from a re-analysis of the deposited data

Results flagged for a closer look

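Of 26 values examined, 1 Cdk6-/- tumour stood far from the other 5 in 2, where chance gives about 1 in 20. Hist1h4i was at 5.41 CPM in Cdk6-/- tumour 3, against 1.88 to 2.94 CPM in the other Cdk6-/- tumours. Hist1h2be was at 12.3 CPM in Cdk6-/- tumour 5, against 1.58 to 5.19 CPM in the others.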

How the results depend on the processing

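The 1 member called higher became 5 with DESeq2 (Hist1h1e, Hist1h2af, Hist1h2ba, Hist2h4 and Hist4h4), 13 without Cdk6-/- tumours 1 and 5 and 0 when Y-linked expression was a covariate. The 1 called lower became 0 with that covariate, with a filter of at least 1 CPM in 3 libraries and with library totals in place of TMM (Hist3h2ba adjusted p = 0.0642 and 0.0645 in the last 2). Leaving out 1 tumour at a time gave 0 to 2 members higher, with 2 without Cdk6-/- tumour 1, and 0 to 1 lower. The median log2 fold change of the tested members, 1.76, was 0.97 to 1.98 with 1 tumour left out and 1.13 with limma-voom. With a tumour left out, the set of members that passed the filter also changed. Without Cdk6-/- tumours 1 and 5 the mRNA processing list went from 0 to 1 called and the chaperone list from 0 to 1. No called fold change changed direction under the alternatives tried. The tumour number did not pair the samples: deviations of tumours with the same number correlated at 0.0473, -0.179 and -0.254. With the number as a replicate block, both the class ratios and the genotype difference of each gene rest on tumours 1 to 3 of each group. The other Cdk6-/- tumours have no Cdk6+/+ tumour of their number. The log2 ratio of summed H3 was 1.88 when taken from the group means over all tumours. In the block setting it was -0.22, taken as the mean of the log2 ratios between tumours of the same number. The measure changed together with the tumours, so the change of sign cannot be put down to the choice of tumours alone. In the block setting the median log2 fold change over tested members went from 1.76 to 0.63. The members called were again 1 higher and 1 lower. The causes were not tested. At the depth of these libraries, 17 of the 69 members had fewer than 10 counts in all, and the common biological coefficient of variation was 0.542, and 0.348 without tumours 1 and 5.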
